A study of Rattus norvegicus with 9 samples.

Results

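Genes for the nuclear-encoded subunits of oxidative phosphorylation were examined in rat alveolar macrophages, the phagocytes that live in the air spaces of the lung. Members were taken by symbol: those that begin with Nduf (complex I and its assembly factors), Sdha to Sdhd and the Sdhaf assembly factors (complex II), Uqcr and Cyc1 (complex III), Cox4 to Cox8 (complex IV) and Atp5 (ATP synthase). The rule found 90 of the 17109 genes in the data, and 83 of them passed a filter of at least 1 FPKM in at least 3 of 9 libraries. FPKM are fragments mapped to a transcript, scaled by its length and by the mapped fragments of the library. By group, 33 of 35 complex I genes, 4 of 4 complex II, 9 of 9 complex III, 12 of 17 complex IV and 15 of 15 ATP synthase genes passed, with the ATP synthase inhibitor Atp5if1 and 9 of 9 assembly factors.

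All animals were male Wistar rats, and no genetic modification is named in the labels. They received nitrogen mustard (NM, given as mechlorethamine hydrochloride at 0.125 mg/kg) or phosphate-buffered saline (PBS) through the trachea under isoflurane. The mustard alkylates and cross-links DNA. Macrophages were taken 1 day or 28 days after NM. For the PBS animals the collection day, and for every library the number of animals behind it, are not given in the sources used here. Each group had 3 libraries, described as biological replicates and numbered 0, 1 and 2. No batch is named in the labels.

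Oxidative phosphorylation runs in the inner mitochondrial membrane. Complex I takes electrons from NADH and complex II takes them from succinate. Both pass them through ubiquinone to complex III, from there on cytochrome c to complex IV, and then to oxygen. Complexes I, III and IV pump protons as they do so, and ATP synthase makes ATP from their return. Most subunits are encoded in the nucleus, and a few are encoded in mitochondrial DNA; the latter do not meet the rule and were not analysed here. Macrophages are known to shift between this pathway and glycolysis as they are activated, and alveolar macrophages at rest are known to rely on it.

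The labelled cell type was checked against its markers. Of 15 alveolar macrophage markers 12 were in the data. Some of these markers moved with the groups. Of 11 tested, 2 were called higher and 1 lower than PBS at day 1, and 2 higher and 1 lower at day 28. From day 1 to day 28, 2 were called higher. Of all genes tested, 5.28% were higher and 4.58% lower at day 1, and 3.07% and 3.98% at day 28. Between the days 4.75% were higher. Against PBS, log2 fold changes of the 11 ran from -0.61 to 3.85 at day 1 and from -0.73 to 2.52 at day 28. The list's summed FPKM ran from 2179 to 4516 in PBS, 2190 to 2670 at day 1 and 2390 to 2656 at day 28. Pparg, the regulator of alveolar macrophage identity, had 177 ± 2.78 FPKM in PBS, 120 ± 18.3 at day 1 and 183 ± 8.73 at day 28. It was lower at day 1 than in PBS (log2 fold change -0.57, limma adjusted p = 0.0315) and higher at day 28 than at day 1 (0.61, adjusted p = 0.0192). The mannose receptor Mrc1 had 376 ± 38.3, 322 ± 40.5 and 229 ± 47.2 FPKM and was lower at day 28 than in PBS (-0.73, adjusted p = 0.0323). The scavenger receptor Marco, a defining marker, was listed at 0 in every library, which can also be a failed estimate. Car4, another marker, lay between 0 and 0.609 FPKM in PBS and between 2.50 and 21.1 FPKM in the NM libraries.

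Markers of other cells moved with the groups as well. At day 1, 8 of 13 monocyte, 6 of 9 neutrophil (with 1 lower), 4 of 10 T and natural killer cell and 10 of 16 alveolar epithelial markers tested were called higher than in PBS. Of all genes tested, 5.28% were called higher in that comparison. The summed FPKM of the alveolar epithelial markers ran from 249 to 422 in PBS, 1056 to 3124 at day 1 and 288 to 396 at day 28. The neutrophil sums ran from 299 to 466, 787 to 1191 and 617 to 1187, and those of T and natural killer cells from 28.3 to 39.1, 106 to 113 and 38.2 to 48.6. Airway epithelial sums ran from 1545 to 8472, 1534 to 3638 and 907 to 1450. The monocyte sums did not rise with the count of called markers: they ran from 12724 to 24329, 8734 to 13289 and 12667 to 14855. A sum gives the most weight to abundant genes. Taken gene by gene at day 1, 11 of the 13 monocyte markers had log2 fold changes above 0 and 2 below. Their median was 2.26. Heart muscle is a tissue rich in mitochondria, and 5 of its 15 markers were listed at 0 in every library, and the summed FPKM was at most 13.3. In such bulk samples, fewer cells of a type and less RNA per cell cannot be told apart, and the part of these markers' cells in the results below was not tested.

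The members were among the strongly expressed genes. Their mean over the 9 libraries had a median of 157 FPKM, and together they held 2.50 ± 0.20% of all FPKM in PBS, 2.52 ± 0.08% at day 1 and 2.26 ± 0.20% at day 28 (mean ± SD, n = 3). Ndufa13 had the highest mean (980 FPKM), ahead of Atp5mf (866 FPKM) and Atp5f1e (806 FPKM). By complex, the median gene had 422 FPKM in ATP synthase, 389 in complex IV, 137 in complex II, 136 in complex I and 91.4 in complex III. The assembly factors, which help build the complexes and are not part of them, were lower, with a median of 14.99 FPKM. Levels of FPKM are per length of transcript, so they can be set side by side between genes.

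Isoforms made for other tissues or for low oxygen were listed at or near 0. A listed 0 can be a failed estimate here, so it does not show that a gene was not expressed. Cox8b, the heart and muscle isoform of subunit 8, was listed at 0 in 8 of 9 libraries, with 1.36 FPKM in PBS replicate 2. Its ubiquitous counterpart Cox8a lay between 198 and 406 FPKM. Cox6a2, the muscle isoform of subunit 6a, reached at most 4.31 FPKM when its 2 rows were summed, against 262 to 612 FPKM for Cox6a1. That value came from a row with a non-coding (NR) RefSeq identifier. The coding row of Cox6a2 reached at most 1.83 FPKM, in NM day 28 replicate 0. Cox4i2, an isoform known from lung and from low oxygen, reached at most 1.18 FPKM, against 352 to 1109 FPKM for Cox4i1. Ndufa4l2, a gene known to be induced at low oxygen, reached at most 0.300 FPKM, against 82.6 to 170 FPKM for Ndufa4, a gene named for complex I that later work places in complex IV. Cox6b2, Cox6c-ps1 and Cox8c also failed the filter. Ndufa11, an accessory subunit of complex I, was listed at 0 in every library, and no fold is given for it. Among the genes that passed, Cox6a2 was the only one under 1 FPKM in any library.

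The libraries differed in the level of the whole family. The median member stood 0.37 and 0.25 (log2) above its own mean over the libraries in PBS replicates 0 and 1, but 0.20 below it in PBS replicate 2. It stood at -0.01, -0.13 and 0.05 in the day 1 libraries 0, 1 and 2, and at 0.07, -0.34 and -0.02 in those of day 28. So PBS replicate 2 lay with the NM libraries, and NM day 28 replicate 1 lay below all others. Of the 83 members, 39 had their lowest value in NM day 28 replicate 1 and 22 in PBS replicate 2, while 39 had their highest in PBS replicate 0 and 19 in PBS replicate 1. The median over all 9885 genes tested stayed between -0.02 and 0.04.

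Other families of abundant housekeeping genes stood high and low in the same libraries. In NM day 28 replicate 1 the median shift was -0.43 for 79 cytosolic ribosomal protein genes, -0.28 for 65 mitochondrial ribosomal protein genes and -0.38 for 38 proteasome genes. In PBS replicate 0 it was 0.29, 0.23 and 0.29. Library size moved with the groups as well. Relative depth was read from low values, as the ratio that occurred most often between libraries among FPKM under 1, and was 1.42 to 2.58 in PBS, 1 to 1.47 at day 1 and 1.03 to 1.12 at day 28, with NM day 1 replicate 0 set to 1. The part of depth in the results below was not tested.

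**Figure D1:**
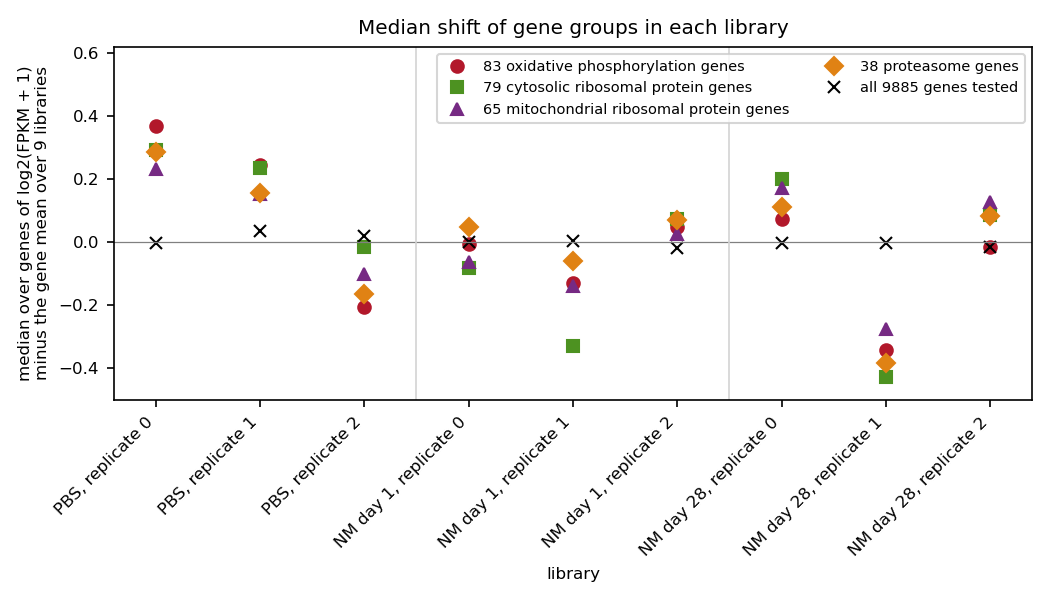
Each point is the median over a group of genes of log2(FPKM + 1) minus the gene's mean over the 9 libraries, for the libraries on the horizontal axis. The 83 oxidative phosphorylation genes (red circles) run from 0.37 in PBS replicate 0 to -0.34 in NM day 28 replicate 1, and the ribosomal and proteasome genes shift in the same libraries, while all 9885 genes tested stay near 0.

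Members varied together across libraries. Pearson's r between a member and the median of the other members over the 9 libraries, which share depth and scaling, had a median of 0.70, and 63 of 83 members were above 0.5. Atp5f1b, the catalytic beta subunit of ATP synthase, followed the family closely (r = 0.96). There were 6 members below 0: Ndufaf6, Sdhaf1, Cox6a2, Uqcrc2, Ndufaf4 and Ndufa12, of which 3 are assembly factors.

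The sequence before the start of these genes was read in the RefSeq promoter windows (assembly GRCr8), since genes of this family are known to share sites for the factors NRF1, GABP and YY1. A window was found for 73 of the 83 members. The ETS letters CCGGAAG, to which GABP can bind, were on either strand in 25 of the 73 windows (34.2%), against 19.8% of the 7689 windows of genes tested and 11.2% of 19005 windows of protein-coding genes. The YY1 letters AAGATGGC were in 14 (19.2%, against 5.996% and 3.92%). The core of the NRF1 site, GCATGCGC, was in 9 (12.3%, against 5.23% and 3.23%). At least 1 of these was in 36 member windows (49.3%, against 27.9% and 16.8%). These are matches of letters and not measured binding.

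The 120 bases before the start are shown for 4 of the called genes that hold the ETS letters there (in capitals, CCGGAAG or its reverse complement CTTCCGG) and for 2 that hold none of the searched letters in that stretch, 5′ to 3′ on the strand of the gene. Uqcrc2 (chr1:184599120-184599239, plus strand) and Ndufa13 (chr16:19560406-19560525, plus strand) were called in opposite directions after NM (higher at day 28 and lower at day 1), and both carry the letters. Sdhb lies at chr5:158547814-158547933 on the plus strand and Ndufb7 at chr19:41477292-41477411 on the minus strand. Ndufv3 (chr20:9613666-9613785, plus strand) and Ndufb10 (chr10:14255967-14256086, minus strand) were lower at both times and have none of the letters in that stretch.
Uqcrc2: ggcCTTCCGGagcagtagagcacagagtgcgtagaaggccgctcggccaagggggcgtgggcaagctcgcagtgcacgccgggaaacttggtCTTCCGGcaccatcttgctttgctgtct
Ndufa13: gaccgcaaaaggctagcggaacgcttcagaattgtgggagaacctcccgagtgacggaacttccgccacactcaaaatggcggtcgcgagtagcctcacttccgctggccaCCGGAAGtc
Sdhb: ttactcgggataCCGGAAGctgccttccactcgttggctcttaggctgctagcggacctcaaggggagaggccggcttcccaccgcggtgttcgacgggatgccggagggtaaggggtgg
Ndufb7: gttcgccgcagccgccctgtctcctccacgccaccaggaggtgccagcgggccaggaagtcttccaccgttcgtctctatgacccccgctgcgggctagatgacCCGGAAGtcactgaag
Ndufv3: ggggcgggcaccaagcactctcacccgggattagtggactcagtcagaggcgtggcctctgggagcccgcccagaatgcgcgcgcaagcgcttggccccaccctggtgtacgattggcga
Ndufb10: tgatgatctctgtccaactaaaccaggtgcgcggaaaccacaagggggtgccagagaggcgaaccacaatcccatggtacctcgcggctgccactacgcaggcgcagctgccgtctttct

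The comparison of NM day 1 with PBS concerns the acute phase after the mustard. Genes were called with limma on log2(FPKM + 1) at a Benjamini-Hochberg adjusted p under 0.05 over all 9885 genes. No member was called higher, against 5.28% of all genes tested. There were 3 called lower of 83, against 4.58% of all genes, and 13 members (15.7%, against 25.3% of all genes) had an unadjusted p under 0.05. All 3 were accessory subunits of complex I, which surround its catalytic core: Ndufv3, Ndufb10 and Ndufa13. The median log2 fold change of the 83 members was -0.17 (all genes -0.04), but it was 0.03 under quantile normalisation and 0.11 when libraries were rescaled to the same sum of FPKM, which moved the median of all genes by 0.26. With that rescaling the members' median stood 0.11 below that of all genes, and with quantile normalisation 0.09 above it, so the direction of the family as a whole depends on the scaling. Single libraries moved this median too: it was -0.03 without PBS replicate 0 (all genes -0.05), -0.10 without PBS replicate 1 and -0.36 without PBS replicate 2.

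Ndufv3, an accessory subunit of the module that binds NADH, had 531, 624 and 483 FPKM in PBS replicates 0, 1 and 2, and 281, 311 and 353 FPKM at day 1. Every day 1 library lay below every PBS library, and the means were 546 ± 71.5 and 315 ± 36.5 FPKM (SD, n = 3). The log2 fold change was -0.79 ± 0.17 (SE, adjusted p = 0.0126). Both transcripts of the gene were called lower when tested singly: the one with the higher level went from 327 ± 59.9 to 193 ± 25.4 FPKM and the other from 219 ± 16.4 to 122 ± 15.3 FPKM. The call was kept under 17 of 20 alternatives, with adjusted p between 0.00697 and 0.0751. It ended without PBS replicate 1, without NM day 1 replicate 0 and with libraries centred on the median member. The log2 fold change was -0.50 both with quantile normalisation and with libraries rescaled to the same sum.

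Ndufa13, also known as GRIM-19, anchors the peripheral arm of complex I near the membrane and has been linked to cell death. It had 1102, 1402 and 1143 FPKM in PBS and 483, 548 and 653 FPKM at day 1. The groups did not overlap, and the log2 fold change of -1.12 ± 0.29 (adjusted p = 0.0317) was the largest fall of the 83 members at day 1. At day 28 it had 1391, 626 and 1475 FPKM. The day 28 libraries 0 and 2 were thus back at or above the PBS level, while replicate 1 stayed near the day 1 level. Against day 1 the log2 fold change was 0.96 ± 0.29, which missed the threshold (adjusted p = 0.0514). The day 1 call was kept under 13 of 20 alternatives (adjusted p 0.00219 to 0.144). Among the fits it failed were those without any 1 PBS library or without NM day 1 replicate 0 or 1.

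Ndufb10, an accessory subunit of the membrane arm, had 367, 415 and 330 FPKM in PBS and 177, 239 and 253 FPKM at day 1. The groups did not overlap, and the log2 fold change was -0.74 ± 0.21 with an adjusted p of 0.046. This call was kept under 5 of 20 alternatives (adjusted p 0.0212 to 0.203). It ended when any single library of PBS or NM day 1, or NM day 28 replicate 2, was left out, and under other settings that include the 3 scalings. With libraries rescaled to the same sum the value was -0.45.

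Leaving out NM day 28 replicate 1, which enters this comparison only through the shared estimate of spread, raised the count of lower members from 3 to 8, while the share of all genes called lower went from 4.58% to 7.26%. The count was 1 without PBS replicate 0, PBS replicate 2 or NM day 1 replicate 1, where 2.15%, 3.77% and 1.99% of all genes were called lower. It was 0 without PBS replicate 1 or NM day 1 replicate 0, where 0.789% and 0.668% of all genes were. A count of groups that did not overlap gave 13 members below PBS and 3 above, or 15.7% and 3.61% of 83. Over all genes these shares were 18.1% and 15.2%.

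**Figure D2:**
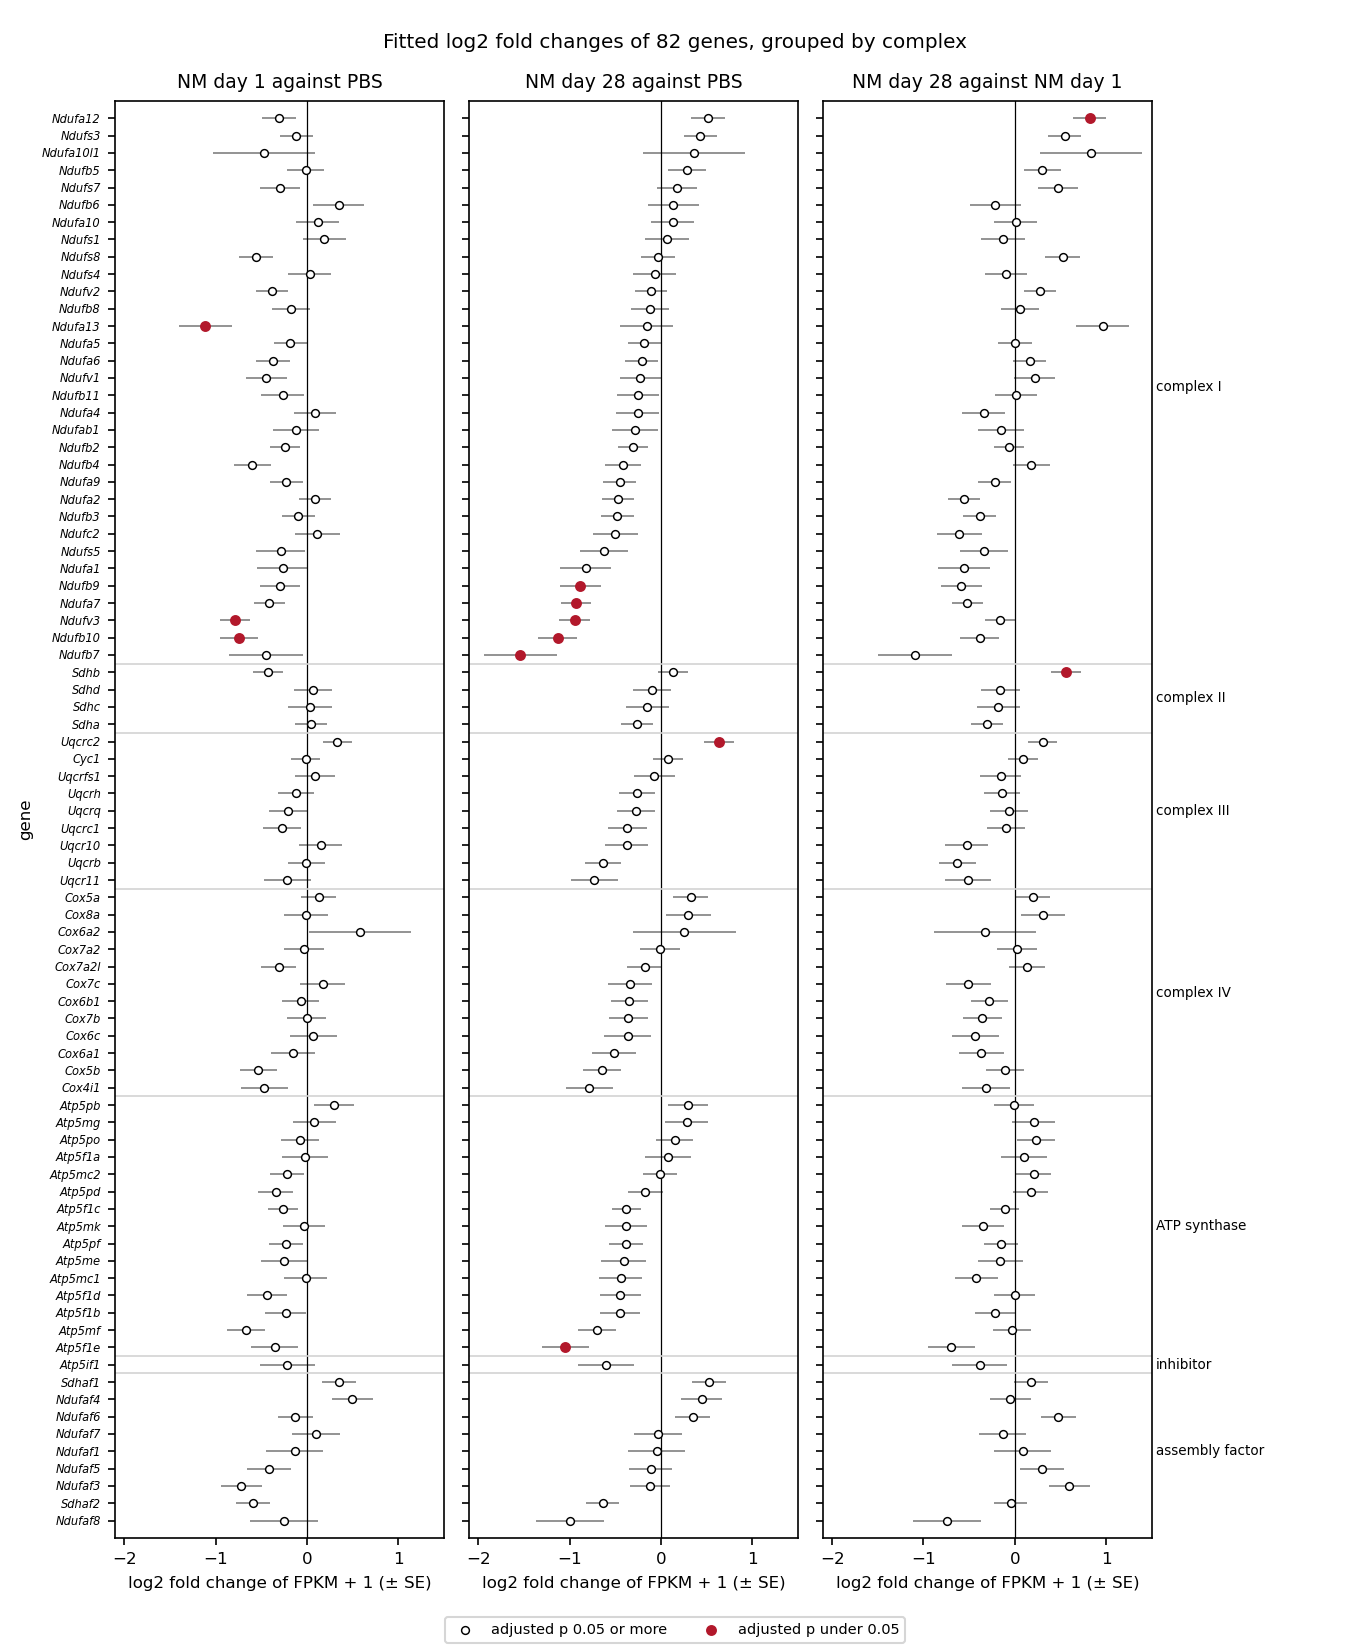
Points are fitted log2 fold changes of log2(FPKM + 1) with their SE for the genes that passed the filter (1 of the 83 is not drawn), grouped by complex, for NM day 1 against PBS, NM day 28 against PBS and NM day 28 against NM day 1. Filled red points passed an adjusted p of 0.05: 3 genes at day 1, 7 at day 28 and 2 between the days, and most points of the first and second panels lie below 0 under the deposited scaling.

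The 7 core subunits of complex I, which carry the flavin and the iron-sulfur clusters, had no call at day 1. Their median log2 fold change was -0.29, and that of the 26 other complex I genes was -0.25. Ndufs8, which holds iron-sulfur clusters between the arms, had 126, 118 and 105 FPKM in PBS and 67.3, 81.4 and 88.0 FPKM at day 1. The groups did not overlap, but the change of -0.56 ± 0.19 missed the threshold (adjusted p = 0.0849). Ndufv1, the NADH-binding flavoprotein, had 74.5, 76.6 and 68.8 FPKM in PBS and 50.9, 51.9 and 57.6 FPKM at day 1 (-0.45 ± 0.22, adjusted p = 0.237). Ndufs1, the largest iron-sulfur subunit, gave 0.19 ± 0.24.

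No gene of complexes II to IV or of ATP synthase was called at day 1. The medians were 0.04 for complex II, -0.02 for complex III, -0.02 for complex IV and -0.23 for ATP synthase. The nearest to the threshold were Atp5mf, the f subunit of the membrane part of ATP synthase, at -0.67 ± 0.21 (adjusted p = 0.0665), and 2 assembly factors. Ndufaf3, of complex I, stood at -0.72 ± 0.22 (adjusted p = 0.0649) and Sdhaf2, which helps attach flavin to Sdha, at -0.59 ± 0.18 (adjusted p = 0.0627). Cyc1, the cytochrome c1 of complex III, was at 90.8 ± 17.2 FPKM in PBS and 88.7 ± 5.23 FPKM at day 1, a log2 fold change of -0.02 ± 0.16. Uqcrfs1, the Rieske iron-sulfur protein, was at 86.7 ± 24.99 and 90.2 ± 12.8 FPKM.

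**Figure D3:**
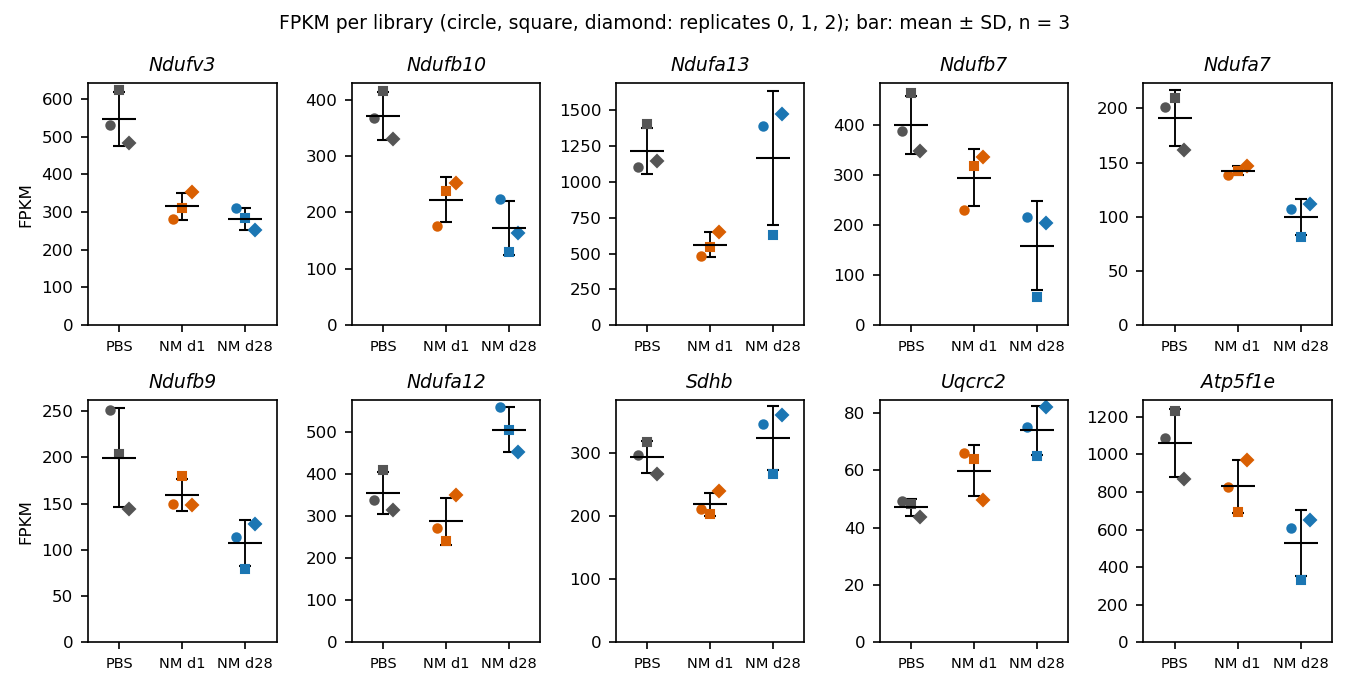
Each panel shows the FPKM of a called gene in the 3 libraries of PBS, NM day 1 (NM d1) and NM day 28 (NM d28), with mean and SD. Ndufv3 has at most 353 FPKM in the 6 NM libraries and at least 483 FPKM in PBS, Ndufa13 is low at day 1 and again only in NM day 28 replicate 1, and Uqcrc2 lies above PBS in all 6 NM libraries.

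The comparison of NM day 28 with PBS concerns the late phase, when NM is known to leave fibrosis in the rat lung. There was 1 member called higher of 83, against 3.07% of all genes, and 6 called lower, against 3.98%. An unadjusted p under 0.05 was reached by 23 members (27.7%, against 23.9% of all genes). The lower genes were the complex I accessory subunits Ndufb7, Ndufb10, Ndufv3, Ndufa7 and Ndufb9 and the ATP synthase subunit Atp5f1e, and the higher gene was Uqcrc2 of complex III. The members' median was -0.25 (all genes -0.04). It was -0.09 with quantile normalisation and -0.06 with libraries rescaled to the same sum, which moved the median of all genes by 0.17. With that rescaling the members' median stood 0.19 below that of all genes, and with quantile normalisation 0.09 below it. The members' median was -0.09 without NM day 28 replicate 1, -0.13 without PBS replicate 0 and -0.41 without PBS replicate 2. The median of all genes lay between -0.06 and -0.03 in those fits.

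The falls of Ndufv3, Ndufb10 and Ndufa7 were called under the 20 alternatives run, without exception. Ndufv3 had 310, 285 and 252 FPKM at day 28, all below the PBS libraries and overlapping with the day 1 libraries. Its log2 fold change against PBS was -0.95 ± 0.17 (adjusted p = 0.0058), and its difference between the days was -0.16 ± 0.17. Ndufb10 had 224, 130 and 163 FPKM at day 28 and a log2 fold change of -1.13 ± 0.21 (adjusted p = 0.00874). Ndufa7, an accessory subunit of the peripheral arm, had 201, 210 and 161 FPKM in PBS, 138, 142 and 147 FPKM at day 1 and 107, 80.9 and 112 FPKM at day 28. The 3 groups of Ndufa7 did not overlap with each other, and day 28 differed from PBS by -0.93 ± 0.17 (adjusted p = 0.0067). Its steps from PBS to day 1 (-0.41 ± 0.17, adjusted p = 0.146) and from day 1 to day 28 (-0.52 ± 0.17, adjusted p = 0.0655) did not pass on their own.

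Ndufb7 and Ndufb9, accessory subunits of the membrane arm, were also lower. Ndufb7 had 389, 464 and 348 FPKM in PBS and 217, 56.4 and 205 FPKM at day 28, with the lowest value in NM day 28 replicate 1. Its log2 fold change of -1.54 ± 0.40 (adjusted p = 0.0399) had the widest error of the calls, and it was kept under 10 of 20 alternatives (adjusted p 0.0175 to 0.143). Without NM day 28 replicate 1 the value was -0.91. The call of Ndufb7 ended without any 1 library of PBS or NM day 1, among other settings. Ndufb9 had 251, 204 and 144 FPKM in PBS and 114, 79.6 and 127 FPKM at day 28. The groups did not overlap, and the change was -0.88 ± 0.22 (adjusted p = 0.0356). It was kept under 11 of 20 alternatives (adjusted p 0.0133 to 0.131). The call ended without PBS 0 or 1, NM day 1 library 0 or 2, or NM day 28 library 0 or 1. It also ended without a filter, with only the 6 libraries compared and with isoforms tested singly.

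Atp5f1e, the epsilon subunit in the rotating stalk of ATP synthase, was the only called gene of that complex. It had 1085, 1227 and 867 FPKM in PBS, 824, 692 and 970 FPKM at day 1 and 606, 330 and 653 FPKM at day 28. All day 28 libraries lay below all others, and day 28 differed from PBS by -1.05 ± 0.26 (adjusted p = 0.0331). The call was kept under 14 of 20 alternatives (adjusted p 0.0176 to 0.143). It ended when PBS library 0 or 1, or NM day 1 library 0, was left out. It also ended without a filter, with quantile normalisation and with only the 6 libraries compared. The catalytic subunits of the same enzyme were not called: Atp5f1a (alpha) had 146 ± 35.2 FPKM in PBS and 155 ± 42.0 FPKM at day 28 (0.08 ± 0.25), and Atp5f1b (beta) had 610 ± 148 and 446 ± 104 FPKM (-0.45 ± 0.22, adjusted p = 0.249). Atp5if1, which blocks the enzyme when it would run in reverse, had 215 ± 76.7 FPKM in PBS, 180 ± 39.1 at day 1 and 141 ± 47.7 at day 28, and its groups overlapped.

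Uqcrc2, a core protein of complex III, moved the other way. It had 49.3, 48.3 and 43.5 FPKM in PBS, 65.8, 63.9 and 49.6 FPKM at day 1 and 74.97, 64.95 and 81.8 FPKM at day 28. All 6 NM libraries lay above the PBS libraries, and day 28 differed from PBS by 0.64 ± 0.16 (adjusted p = 0.0355), against 0.33 ± 0.16 at day 1 (adjusted p = 0.224). The call was kept under 13 of 20 alternatives (adjusted p 0.0111 to 0.117) and ended, among others, without any 1 PBS library, without NM day 28 replicate 0 or 2, and with only the 6 libraries compared. Its partner core protein Uqcrc1 had 86.5, 77.9 and 67.3 FPKM in PBS and 71.9, 40.8 and 70.7 FPKM at day 28 (-0.37 ± 0.21, adjusted p = 0.323). Other complex III genes were not called, and the median of the 9 was -0.27.

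In complex IV no gene was called at day 28, and the median of 12 was -0.34. Cox4i1, the largest nuclear-encoded subunit, had 1109, 989 and 737 FPKM in PBS and 711, 352 and 632 FPKM at day 28. These groups did not overlap, but the change of -0.78 ± 0.26 missed the threshold (adjusted p = 0.0894). Cox5a and Cox5b, a pair of subunits of the matrix side, gave values of opposite sign: 0.33 ± 0.19 (adjusted p = 0.331) and -0.64 ± 0.21 (adjusted p = 0.0845). The isoform genes Cox6a1, Cox7a2 and Cox8a gave -0.52 ± 0.24, -0.01 ± 0.22 and 0.30 ± 0.24, and Ndufa4 gave -0.25 ± 0.23.

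Without PBS replicate 2, the count of members lower at day 28 was 12 in place of 6, while the share of all genes called lower was 3.99% in place of 3.98%. The count was 3 without PBS replicate 0, PBS replicate 1 or NM day 1 replicate 0, where 2.22%, 1.18% and 3.48% of all genes were called lower. The count of higher members was 0 in 5 of the fits that left out a library (any PBS library, or NM day 28 replicate 0 or 2), where the share of all genes called higher ran from 1.56% to 2.39%. Groups that did not overlap were counted as well. Of 83 members 12 lay below PBS (14.5%, against 14.4% of all genes) and 4 above (4.82%, against 12.7%).

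**Figure D4:**
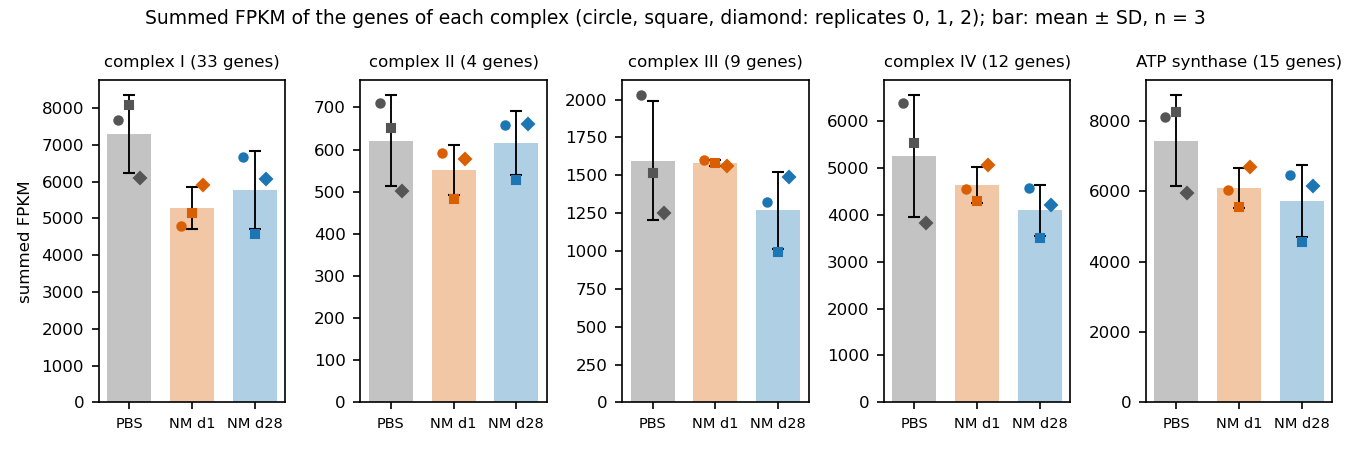
Bars are the mean summed FPKM of the genes of each complex in PBS, NM day 1 (NM d1) and NM day 28 (NM d28), with the SD and the 3 libraries as points. For complex I the sums run from 6088 to 8085 in PBS, 4783 to 5896 at day 1 and 4586 to 6672 at day 28, and NM day 28 replicate 1 is the lowest NM day 28 library in all 5 complexes. The bars are not scaled to the sum of all FPKM, whose mean was lower in both NM groups than in PBS.

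Summed over its 33 genes, complex I had 7686, 8085 and 6088 FPKM in PBS and 4783, 5134 and 5896 FPKM at day 1. No day 1 library reached the lowest PBS library, but the gap was narrow (5896 against 6088 FPKM). Between those libraries Ndufa13, the member with the highest mean, alone differed by more than this gap. Without Ndufa13 the complex I sums of PBS and day 1 would overlap. At day 28 the sums were 6672, 4586 and 6057 FPKM, which overlapped with PBS. ATP synthase had 7434 ± 1292 FPKM in PBS, 6101 ± 566 at day 1 and 5728 ± 1014 at day 28, and complex IV had 5242 ± 1298, 4627 ± 385 and 4090 ± 545. Complex III had 1598 ± 396, 1581 ± 22.4 and 1269 ± 254, and complex II had 621 ± 107, 551 ± 59.2 and 615 ± 75.7. The groups of these 4 complexes overlapped between PBS and day 1, and between PBS and day 28. The sum of all FPKM was also lower after NM, with means at 0.81 of PBS at day 1 and 0.87 at day 28. The same ratios were 0.72 and 0.79 for complex I, 0.82 and 0.77 for ATP synthase and 0.88 and 0.78 for complex IV. They were 0.99 and 0.79 for complex III and 0.89 and 0.99 for complex II.

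The comparison of the NM groups with each other concerns the difference between the 2 phases. At day 28, 2 of 83 members were called higher than at day 1 (4.75% of all genes) and 0 lower (6.88% of all genes), with 15 members (18.1%, against 26.9% of all genes) at an unadjusted p under 0.05. The median was -0.11, against -0.004 for all genes. It was -0.20 without NM day 28 replicate 0, -0.07 without NM day 1 replicate 2 and -0.21 with libraries rescaled to the same sum. Because both NM groups were also compared with the same PBS libraries, their fold changes against PBS share those values.

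Ndufa12, an accessory subunit of the peripheral arm of complex I, was 1 of the 2. It had 339, 411 and 316 FPKM in PBS, 273, 242 and 351 FPKM at day 1 and 560, 507 and 453 FPKM at day 28. All day 28 libraries lay above all others. The change from day 1 to day 28 was 0.82 ± 0.18 (adjusted p = 0.013), kept under 17 of 20 alternatives (adjusted p 0.00491 to 0.0621), and ended when day 1 library 0 or 1, or day 28 library 0, was left out. Against PBS, day 28 gave 0.51 ± 0.18 (adjusted p = 0.108).

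Sdhb, the iron-sulfur subunit of complex II, was the other. It had 297, 318 and 268 FPKM in PBS, 213, 204 and 240 FPKM at day 1 and 347, 267 and 361 FPKM at day 28. The day 1 libraries lay below those of both other groups, and the change from day 1 to day 28 was 0.56 ± 0.16 (adjusted p = 0.0459). It was kept under 8 of 20 alternatives (adjusted p 0.0134 to 0.154) and ended when any 1 of the day 1 libraries, PBS library 0 or 1, or day 28 library 0 or 2 was left out, among other settings. The other complex II genes gave values below 0: Sdha, the flavoprotein that oxidises succinate, gave -0.31 ± 0.17 from day 1 to day 28, and the membrane anchors Sdhc and Sdhd gave -0.18 ± 0.24 and -0.16 ± 0.21. None of these 3 was called in any comparison.

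The core subunits of complex I had a positive median from day 1 to day 28 (0.28, 7 genes), while that of the other 26 complex I genes was -0.16. No core subunit was called. Ndufs3, an iron-sulfur protein subunit of the peripheral arm, had 61.5, 56.7 and 62.9 FPKM at day 1 and 108, 70.8 and 90.4 FPKM at day 28 (0.55 ± 0.18, adjusted p = 0.0708), and those groups did not overlap. Genes with values of the other sign included Uqcrb, a small subunit of complex III, at -0.63 ± 0.20 (adjusted p = 0.0638), and Ndufa2 at -0.56 ± 0.18 (adjusted p = 0.0587).

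Single libraries changed these counts. Without NM day 28 replicate 1 the count of higher members was 7, the median became 0.02 and 6.35% of all genes were called higher, in place of 4.75%. The count was 0 without NM day 1 replicate 0, NM day 1 replicate 1 or NM day 28 replicate 0 (2.71%, 2.42% and 2.28% of all genes), and 1 without PBS replicate 0, PBS replicate 1 or NM day 28 replicate 2 (4.36%, 3.35% and 2.69%). The count of lower members was 4 without PBS replicate 2 (7.20% of all genes). It was 5 with quantile normalisation (6.10%) and 8 with libraries rescaled to the same sum (8.45%).

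When each library was centred on its median member, a gene is read relative to the rest of the family. This setting was chosen after seeing the data. At day 28, 6 genes stood lower than PBS relative to the family (Ndufb7, Ndufb10, Atp5f1e, Ndufv3, Ndufa7 and Ndufb9) and 4 stood higher (Uqcrc2, Ndufa12, Ndufs3 and Cox5a). Centring moved the median of all genes from -0.04 to 0.16, and 1.36% of all genes were then called lower and 3.92% higher. Ndufa12 had 0.75 ± 0.18 (adjusted p = 0.0298), Ndufs3 0.66 ± 0.16 (adjusted p = 0.033) and Cox5a 0.56 ± 0.14 (adjusted p = 0.0388). At day 1 Ndufa13 was the only member called, with -0.95 ± 0.23 (adjusted p = 0.0291), against 0.910% of all genes called lower and 4.93% higher. From day 1 to day 28, Ndufa12, Ndufa13, Sdhb and Ndufs3 stood higher relative to the family and Uqcrb, Atp5f1e and Ndufa2 lower (3.60% and 4.85% of all genes).

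Several transcript rows were summed for 6 members, and in 2 of them a row tested singly was called in a comparison where the sum was not. Atp5pd, subunit d of the ATP synthase stator, has 2 rows with the same transcript identifier, 1 of them with a suffix. The row without the suffix had 213, 227 and 236 FPKM in PBS, 147, 160 and 167 FPKM at day 1 and 330, 298 and 315 FPKM at day 28. Its 3 groups did not overlap, and tested singly it differed by 0.99 ± 0.13 from day 1 to day 28 (adjusted p = 0.00173) and by -0.51 ± 0.13 from PBS to day 1 (adjusted p = 0.0352). The other row of Atp5pd had means of 516 ± 111, 425 ± 41.2 and 350 ± 116 FPKM, with no call. The sum of both was not called. How reads were split between the 2 rows is not given in the sources used here. Atp5pd also has 2 annotated copies by symbol, so the change of 1 row alone is uncertain.

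Ndufaf3, a complex I assembly factor, has 2 RefSeq transcripts. The minor one had 5.26, 7.89 and 3.61 FPKM in PBS, 9.42, 5.58 and 3.33 FPKM at day 1, and at most 0.0303 FPKM at day 28 (-2.64 ± 0.35 against PBS on the log2(FPKM + 1) scale, adjusted p = 0.00293). The major one had 23.0, 25.6 and 22.0 FPKM in PBS, 7.52, 6.85 and 20.7 FPKM at day 1 and 29.2, 22.7 and 28.2 FPKM at day 28, and rose from day 1 to day 28 by 1.28 ± 0.33 (adjusted p = 0.0364). The summed gene had 29.1 ± 4.003 FPKM in PBS and 26.7 ± 3.51 FPKM at day 28, so the minor transcript was near 0 at day 28 while the sum stayed near the PBS level.

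Members with an annotated pseudogene or like-named copy can share reads with it, and how the authors placed such reads is not given in the sources used here. Of the 83 members 46 have such a copy, among them Ndufa13 (4 copies), Ndufv3 and Ndufa7 (2 each) and Ndufb10, Ndufa12 and Atp5f1e (1 each). The values of these genes are uncertain to that extent. Copies were counted by symbol in the RefSeq annotation, so copies under other names were missed. Ndufb7, Ndufb9, Sdhb and Uqcrc2 have none by that count. The 3 calls at day 1 were all among the 46, and at day 28 4 lower genes were among them, against 2 lower and 1 higher among the 37 without a copy. Of all genes tested, 4.58% were lower at day 1, and 3.98% were lower and 3.07% higher at day 28. From day 1 to day 28, 1 gene of each set was called higher. The median log2 fold change at day 1 was -0.11 with a copy and -0.23 without. At day 28 against PBS it was -0.37 and -0.12. The part of shared reads was not tested.

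The genes of the wider pathway were counted by list, to be read against the shares of all genes given above for each comparison. Of 29 tested assembly factors outside the rule, 1 was lower at day 1, 1 was lower and 1 higher at day 28, and 1 was lower and 1 higher between the days. The lower gene at day 1 was Pet100, which acts in complex IV assembly (-0.72 ± 0.19, adjusted p = 0.0305), a call kept under 13 of 20 alternatives, with -0.43 when libraries were rescaled to the same sum. Cox17, the chaperone that hands copper to complex IV, had 1112, 1202 and 760 FPKM in PBS, 614, 760 and 851 FPKM at day 1 and 490, 366 and 379 FPKM at day 28. Day 28 lay below both other groups, by -1.30 ± 0.22 against PBS (adjusted p = 0.00444, called under 20 of 20 alternatives) and -0.85 ± 0.22 against day 1 (17 of 20). Cox20, which stabilises a newly made subunit of the same complex, went the other way, with 39.8, 48.6 and 35.9 FPKM in PBS, 32.1, 30.1 and 39.7 FPKM at day 1 and 75.8, 59.3 and 63.3 FPKM at day 28 (0.94 ± 0.17 against day 1, adjusted p = 0.00532, called under 20 of 20). Against PBS the Cox20 call (0.67 ± 0.17, adjusted p = 0.0405) was kept under 8 of 20.

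In the citrate cycle and pyruvate dehydrogenase list, which feeds the chain with NADH and succinate, 0 of 17 genes were called at day 1, 1 was higher at day 28 and 2 were higher from day 1 to day 28, with none lower. The 2 of 17 are 11.8%, against 4.75% of all genes. Fh, the fumarase that follows complex II in the cycle, had 57.9, 55.8 and 54.7 FPKM in PBS, 52.9, 42.6 and 58.5 FPKM at day 1 and 94.6, 79.7 and 101 FPKM at day 28. The day 28 libraries lay above all others (0.69 ± 0.16 against PBS, adjusted p = 0.0241). Idh3g, a regulatory subunit of the NAD-dependent isocitrate dehydrogenase, had 61.7 ± 2.71 FPKM at day 1 and 106 ± 7.25 FPKM at day 28 (0.77 ± 0.15, adjusted p = 0.00614). Both rises from day 1 to day 28 were called under 20 of 20 alternatives, and that of Fh against PBS under 16 of 20.

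Ucp3, an uncoupling protein of the inner membrane, had the smallest p of these lists. It had 51.2, 54.4 and 55.5 FPKM in PBS, 38.3, 37.2 and 44.9 FPKM at day 1 and 20.7, 23.8 and 20.3 FPKM at day 28, 3 groups without overlap. Day 28 differed from PBS by -1.28 ± 0.15 (adjusted p = 0.000478) and from day 1 by -0.86 ± 0.15 (adjusted p = 0.00345). It was the only called gene of 12 carriers and channels. Of 19 electron carrier and ubiquinone genes, Coq6 was higher at day 28 (0.69 ± 0.19 against PBS, adjusted p = 0.0466) and also against day 1, and Coq7 was lower at day 28 than at day 1 (-0.88 ± 0.26, adjusted p = 0.0459). Coq6 and Coq7 are both hydroxylases of ubiquinone synthesis. Of 18 regulators of mitochondrial biogenesis none was called against PBS, and 2 rose from day 1 to day 28: Polrmt, the mitochondrial RNA polymerase (0.62 ± 0.18, adjusted p = 0.0468), and Tfb1m, which methylates mitochondrial ribosomal RNA (0.66 ± 0.18, adjusted p = 0.0379). The 2 of 18 are 11.1%, against 4.75% of all genes. Most of these calls depended on the setting: Coq6 against PBS was kept under 6 of 20 alternatives and against day 1 under 14, Coq7 under 6, Polrmt under 5 and Tfb1m under 11, while both calls of Ucp3 were kept under 20. None of the 5 ATP synthase assembly factors was called in any comparison.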

How the data were processed

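RNA of 9 libraries (3 of each group) was sequenced in pairs from TruSeq libraries, per the labels. Read alignment with TopHat and quantification with Cuffdiff on the rat build rn4 are named in the submitters' processing notes. The authors deposited FPKM for 18197 RefSeq transcripts in each library. Versions, annotation, strand, scaling between libraries and the placing of reads with several matches are not given in the sources used here. Upper quartiles of FPKM ran from 19.1 to 19.6, and absolute depth is unknown. Symbols came from RefSeq (GRCr8), which named 17189 transcripts (94.5%). The builds differ, so coordinates are printed only for RefSeq promoter windows. The rule's symbols in that annotation include 145 without a transcript here, pseudogenes among them, which were not analysed here.

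Transcripts were summed per gene. Genes with FPKM of at least 1 in at least 3 libraries (9885) entered limma 3.58.1 (R 4.3.3; lmFit, then eBayes with a trend) as log2(FPKM + 1), the 9 libraries sharing 1 estimate of spread around 3 group means. Adding 1 understates changes of low genes. P-values measure the spread between these libraries. The fit was tested on simulated data for NM day 1 against PBS. It recovered 7.46%, 73.1% and 100.0% of genes changed by 0.5, 1 and 2 (log2), among 9885. The changed genes all had a mean log2(FPKM + 1) above 3 in PBS. Noise was drawn for each gene alone, so the shifts that members share within a library were not simulated. Python 3.11.15 (pandas 2.3.3, numpy 2.4.6) made the tables, and matplotlib 3.10.9 the plots. The members, gene lists and tests were chosen with earlier results of these data known. Named genes were up to 8 called members in each direction with groups that do not overlap and a mean of at least 5 FPKM, called assembly factors, set catalytic subunits and tissue isoforms, and called pathway genes (1 set subunit is not reported here singly); other genes named were chosen after their values were seen. Alternatives were a pseudocount of 0.1 or 5, a filter of 5 FPKM or none, 3 other scalings, the replicate block, only the 6 libraries compared, isoforms tested singly, each library left out in turn and, added after seeing the data, centring on the median member.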

Additional observations from a re-analysis of the deposited data

Results flagged for a closer look

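For 2 of the 83 members the effect of NM against PBS differed between day 28 and day 1, by the test of that difference itself. Both effects use the same PBS libraries, so this is the comparison of NM day 28 with NM day 1 given above. In it 4.75% of all genes were called higher and 6.88% lower. Ndufa12 had -0.31 at day 1 and 0.51 at day 28 (log2), a difference of 0.82 ± 0.18 (limma, adjusted p = 0.013), with all 3 day 28 libraries above the other 6. Sdhb had -0.43 at day 1 and 0.13 at day 28, a difference of 0.56 ± 0.16 (adjusted p = 0.0459), with all 3 day 1 libraries below the other 6. Neither gene was called against PBS at either time, so the difference is between NM groups whose own effects did not pass.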

How the results depend on the processing

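Of 27 calls of single named genes (pathway genes included), 0 reversed under the 20 alternatives. Of 56 named values without a call, 31 changed sign in at least 1 alternative and 4 gained a call. Members lower at day 1 numbered 3, and 1 without a filter, with quantile normalisation or with centring on the median member. Rescaling to the same sum gave 1 higher member and a median of 0.11. At day 28, 6 were lower and 1 higher than PBS: 3 were lower without a filter or with only the 6 libraries compared, and 3, 4, 4 and 0 were higher with quantile normalisation, rescaling, centring and only the 6 libraries. Centring put the median at -0.0237. From day 1 to day 28, 2 were higher and 0 lower: 1 was higher with the filter of 5 FPKM, median-of-ratios scaling or only the 6 libraries, and 4 with centring. Lower members then numbered 5 with quantile normalisation, 8 with rescaling, 3 with only the 6 libraries or centring, and 1 with isoforms tested singly. Leaving out 1 library at a time gave 0 to 8 lower members at day 1, 3 to 12 lower and 0 to 1 higher at day 28, and 0 to 7 higher and 0 to 4 lower between the days; 2 libraries then stood for a group. Over the same fits the share of all genes called ran from 0.668% to 7.26% (lower, day 1), 1.18% to 4.31% (lower, day 28), 1.56% to 3.71% (higher, day 28), 2.28% to 6.35% (higher, between the days) and 3.99% to 7.84% (lower, between the days), against 4.58%, 3.98%, 3.07%, 4.75% and 6.88%. With rescaling, 1.03% and 9.88% of all genes were lower and higher at day 1. Lower at day 1 were 2.98% without a filter, 3.11% with quantile normalisation and 0.910% with centring. At day 28, 2.09% were lower without a filter and 2.14% with only the 6 libraries. Higher at day 28 were 3.52% with quantile normalisation, 5.47% with rescaling, 3.92% with centring and 2.24% with only the 6 libraries. Between the days, 5.22% of all genes were higher with the filter of 5 FPKM and 4.27% with median-of-ratios scaling. With only the 6 libraries 3.70% were higher and 5.82% lower, and with centring 3.60% and 4.85%. Lower between the days were 6.10% with quantile normalisation, 8.45% with rescaling and 5.97% with isoforms tested singly. The cause of these moves was not tested.

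The replicate numbers gave no clear sign of pairing: correlations of deviations between same-numbered libraries ran from -0.10 to 0.20 (9 pairs, 3 above 0.1). Those between differently numbered libraries ran from -0.26 to 0.25 (18 pairs, 4 above 0.1). With 3 libraries per group these values cannot exclude a pairing. With the replicate block, 2 members were lower at day 1, 6 were lower and 0 higher at day 28, and 1 was higher and 0 lower between the days; the calls it ended were Ndufb10 at day 1, Uqcrc2, Coq6 and Cox20 at day 28 against PBS, and Sdhb and Polrmt between the days. With the block, 3.51% of all genes were lower at day 1, and 3.52% were lower and 2.81% higher at day 28. Between the days 4.16% were higher and 6.49% lower. FPKM carry no counts, so no counting error is given.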
